A study of Mus musculus with 72 samples.

Results

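Windows of open chromatin, ATAC peaks per the names of the deposited tables, that held almost no TFE3 tags in wild-type microglia and many in microglia lacking Sgsh numbered 1953 of the 91770 windows measured, or 2.13%. They were selected on the TFE3 signal itself, so that signal is given here as a description and is not tested. The rule asked for at least 20 tags per 10M in the SgshKO TFE3 pool, for at least 4 times the SgshKO input plus 1, and for fewer than 5 tags per 10M in the WT TFE3 pool. The level was reached by 31525 windows, the input condition left 28074 of them, and the WT limit left 1953. The same table gave a pair of comparison groups. At 13798 windows TFE3 met the level and input conditions in both genotypes, and at 449 windows the rule held in reverse, with high WT and low SgshKO signal.

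The mice were C57BL/6, either WT or SgshKO, and nuclei were sorted from brain as positive for PU.1 and negative for OLIG2 and NEUN. Chromatin immunoprecipitation of TFE3, MITF and TFEB was deposited as merged pools, of 3 replicates in WT and 2 in SgshKO, with a merged input for each genotype. No age is given for the factor samples, and the pools carry no replicate error. Acetylation of histone H3 at lysine 27 (H3K27ac) was measured in other nuclei, fixed with formaldehyde alone while the factor nuclei were first fixed with DSG, in 2 replicates for each genotype at 4 and at 8 months, which makes 8 libraries, each with its own input. The labels name the allele only as SgshKO and list more than 1 antibody for TFE3 and for TFEB. They do not say whether replicates came from single or pooled animals, so p-values measure the spread between these libraries.

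TFE3, MITF and TFEB belong to the MiT/TFE family of basic helix-loop-helix leucine zipper factors. They bind E-box sequences, and those of lysosomal and autophagy genes often carry the extended form TCACGTG. The kinase complex mTORC1, which is recruited to the lysosome by Rag GTPases, keeps the factors in the cytoplasm when nutrients are plentiful, and lysosomal stress releases them to the nucleus. Sgsh encodes sulfamidase, a lysosomal enzyme of heparan sulfate breakdown. H3K27ac marks active promoters and enhancers, and PU.1 is the lineage factor whose sites cover much of the open chromatin of microglia.

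The windows lay mostly away from gene starts. Introns held 888 of them (45.5%), intergenic sequence 680 (34.8%) and promoters 259 (13.3%). Over all 91770 windows the shares were 45.0%, 28.7% and 17.7%, and at the TFE3 sites of both genotypes promoters took 24.7%. The remainder fell in exons (35), 3' UTRs (35), transcript ends (28), 5' UTRs (18) and non-coding transcripts (10). The median distance to the nearest start was 17.0 kb, against 8.67 kb over all windows, and 343 windows (17.6%) lay within 1 kb of one, against 25.9% overall.

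Promoter sequence from RefSeq (build GRCm38.p6, 250 bases before to 50 after a start) covered at least 100 bases of 166 of the 1953 windows. The 6 below are printed because they sit at a lipid droplet, a lysosomal and a disease-associated gene on the gene lists (Plin2, Hpse, Spp1), at the genes with the most windows (Rftn1, Tmem154), or because the window holds both forms of E-box (the start of Gm40744, nearest to Plxnc1 in the deposited table). The last 3 were picked after their values were seen. The promoter window of Utp20 also holds both forms of E-box and is not printed. Each runs 5′ to 3′ on the strand of its gene and is the part of the window that the promoter table holds. Capitals mark TCACGTG in Plin2, TCATGTG and TCACGTG in Gm40744, TCATGTG on the opposite strand in Rftn1, TGANTCA in Tmem154 and the overlapping GAGGAA and GGAAGT in Spp1. Other matches in these stretches are left in lower case.
Plin2, chr4:86670010-86670145, minus strand: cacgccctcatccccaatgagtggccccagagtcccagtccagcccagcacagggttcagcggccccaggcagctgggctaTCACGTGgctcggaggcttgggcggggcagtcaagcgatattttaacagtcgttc
Gm40744, chr10:94961400-94961600, plus strand: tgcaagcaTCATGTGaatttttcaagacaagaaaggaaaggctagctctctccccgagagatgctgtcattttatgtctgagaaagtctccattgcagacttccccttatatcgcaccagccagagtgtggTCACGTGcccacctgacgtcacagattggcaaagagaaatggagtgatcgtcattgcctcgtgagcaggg
Rftn1, chr17:50190448-50190634, minus strand: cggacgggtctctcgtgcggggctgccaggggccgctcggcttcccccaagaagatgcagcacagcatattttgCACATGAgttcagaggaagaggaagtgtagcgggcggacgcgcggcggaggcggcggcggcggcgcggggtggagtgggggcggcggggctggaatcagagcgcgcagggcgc
Tmem154, chr3:84666130-84666241, plus strand: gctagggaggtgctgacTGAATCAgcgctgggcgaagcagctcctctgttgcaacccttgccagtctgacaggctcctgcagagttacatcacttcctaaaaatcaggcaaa
Spp1, chr5:104434942-104435142, plus strand: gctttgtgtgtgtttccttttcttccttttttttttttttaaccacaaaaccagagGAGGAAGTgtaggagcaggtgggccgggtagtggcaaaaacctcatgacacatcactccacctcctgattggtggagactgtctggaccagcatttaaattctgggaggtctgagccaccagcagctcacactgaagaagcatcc
Hpse, chr5:100719667-100719833, minus strand: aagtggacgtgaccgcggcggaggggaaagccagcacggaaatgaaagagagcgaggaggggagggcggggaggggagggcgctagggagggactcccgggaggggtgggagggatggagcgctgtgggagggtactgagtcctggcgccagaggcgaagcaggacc

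The Hpse stretch holds none of the motifs searched, which says only that those letters are not in it. On both strands, CACGTG occurred in 20 of the 166 windows (12.05%), against 7.99% of all 9246 windows with promoter sequence and 13.4% of the 2342 TFE3 sites of both genotypes. The extended TCACGTG, which contains CACGTG, occurred in 9 (5.42%), against 4.76% and 9.18%, and TCACGTGA in 2 (1.20%), against 1.42% and 2.86%. CATGTG, an E-box with a different centre, occurred in 17 (10.2%), against 4.70% of all such windows and 6.19% of the shared sites, and TCATGTG within it in 7 (4.22%), against 1.28% and 2.18%. TGANTCA, a looser form of the AP-1 site TGA(C/G)TCA, was in 9 (5.42%), against 3.05% and 3.67%. The TGAATCA marked in Tmem154 has an A at the centre and is not that stricter site. GAGGAA was in 30 (18.1%) and GGAAGT, the core of PU.1 and other ETS sites, in 42 (25.3%), against 17.99% and 23.2% of all such windows and 20.54% and 28.5% of the shared sites. In all 32851 RefSeq promoters of 300 bases the shares were 7.15% for CACGTG, 3.77% for TCACGTG, 0.974% for TCACGTGA, 14.2% for CATGTG, 3.77% for TCATGTG, 7.81% for TGANTCA, 28.3% for GAGGAA and 23.8% for GGAAGT. These are counts of letters in promoter windows only, and the distal windows that make up most of the group were not searched.

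TFE3 signal in the SgshKO pool ran from 20.0 to 469 tags per 10M over the 1953 windows, with a median of 29.6, and in the WT pool from 0 to 4.76 with a median of 2.80. Over all 91770 windows the medians were 9.79 in SgshKO and 6.44 in WT. The WT pool was at or below the WT input at 807 of the windows and held 0 tags at 46. The SgshKO input held 0 tags at 1107. Just inside the level, windows at Arpc1b and Tbc1d22a each held 20.0, and just outside it windows nearest 4931403G20Rik and Pabpc2 each held 19.8. Just inside the WT limit, windows at Kcne3 and Gm14635 held 4.76 in WT, and just outside windows at Mir8094 and Chst2 held 5.04. At the input limit, windows at Rgs1 and Rpl34 were 4.01 and 4.02 times the input plus 1, and those at Syt3 and S100b 4.00 and 3.98 times. The edges of the group are therefore continuous with the windows around it.

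The pools differed in ways that bear on the rule. In the SgshKO TFE3 pool 32.97% of 43905485 tags lay in the 91770 windows, and in the WT TFE3 pool 20.7% of 35704403. When the 6 factor pools were scaled by the TMM method, which sets the bulk of the windows equal, the rule took 595 windows, of which 484 were among the 1953. With that scaling the reversed rule took 644, against 449 without it. More windows appearing than disappearing was thus seen with the deposited scale and not with TMM. The SgshKO pools also had more empty windows, 14.1% against 5.40% for TFE3, 33.4% against 23.9% for MITF, 46.0% against 17.6% for TFEB and 47.6% against 4.06% for input. What part these differences had in the choice of windows was not tested.

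The 10 windows with the most SgshKO TFE3 lay in introns or between genes. The highest, on chromosome 12 at 73728861 to 73729061 in an intron of Prkch, which encodes protein kinase C eta, held 5 TFE3 tags in WT and 2058 in SgshKO. This is 1.40 tags per 10M (95% exact Poisson interval 0.455 to 3.27) against 469 (449 to 489). Such intervals cover counting error only. The same window held 17.9 and 256 for MITF and 14.3 and 257 for TFEB, the highest TFEB value of the group.

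An intergenic window on chromosome 14 at 73838948 to 73839148, 286262 bp from the start of Sucla2, went from 4.20 in WT to 383 in SgshKO for TFE3 and from 10.9 to 290 for MITF. A window 9313 bp upstream of Ddhd1, which encodes a phospholipase, went from 2.80 to 315. One nearest Gm12669 on chromosome 7 at 137709797 to 137709997 held a single WT tag, 0.280, and 302 in SgshKO. Nearest genes are only the closest annotated starts, and at distances such as that of Sucla2 they do not identify a target.

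The other 6 were nearest C77080 (1.12 in WT and 299 in SgshKO), Hif1a (1.40 and 292), Rftn1 (2.80 and 275), Nnat (2.24 and 270), Runx1 (3.36 and 251) and Abcd2 (3.08 and 238). Hif1a encodes the hypoxia-inducible factor subunit that also directs glycolysis in activated macrophages, Rftn1 the lipid raft protein raftlin, Runx1 a transcription factor of blood and myeloid cells, and Abcd2 a peroxisomal transporter of very long chain fatty acids. All 10 held more MITF and more TFEB in the SgshKO pools than in the WT pools. Their SgshKO MITF ran from 103 at Ddhd1 to 297 at Nnat, and their SgshKO TFEB from 28.7 at Hif1a to 257 at Prkch.

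**Figure D1:**
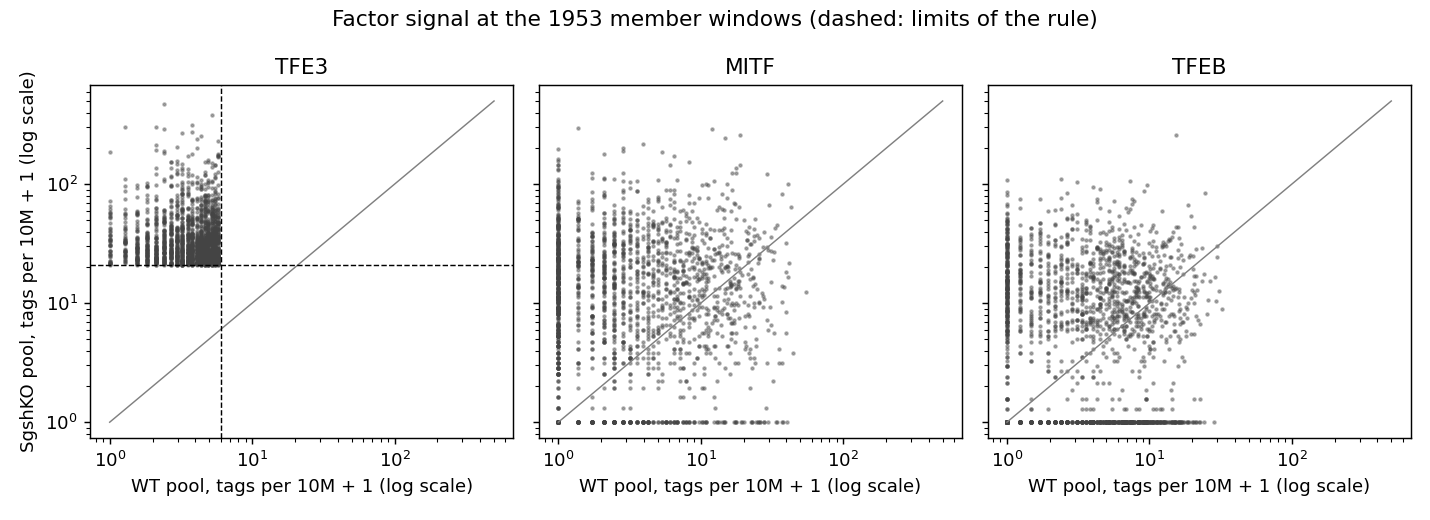
Signal of TFE3, MITF and TFEB at the 1953 windows, SgshKO pool (vertical) against WT pool (horizontal), each in tags per 10M plus 1 on log axes; each point is 1 window, the line marks equal values and dashed lines the limits of the rule. TFE3 fills only the corner the rule allows, while MITF and TFEB lie on both sides of the line. MITF and TFEB were at least 2-fold higher in SgshKO at 1196 and 855 windows (61.2% and 43.8%), against 33.6% and 21.7% of all windows.

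MITF and TFEB, which the rule did not use, were also higher in the SgshKO pools at many of these windows. MITF had a median of 12.04 tags per 10M in SgshKO and 1.83 in WT, and was at least 2-fold higher at 1196 windows (61.2%) on the log2(tags per 10M + 1) scale, against 33.6% of all windows. It was at least 2-fold lower at 270 (13.8%), against 25.1%. TFEB had medians of 6.54 and 2.81, and was at least 2-fold higher at 855 windows (43.8%), against 21.7% of all windows, and at least 2-fold lower at 493 (25.2%), against 35.6%. At the TFE3 sites of both genotypes the shares at least 2-fold higher were 46.6% for MITF and 25.5% for TFEB. With TMM scaling 1055 windows (54.0%) remained above 2-fold for MITF and 804 (41.2%) for TFEB, beside 25.5% and 18.8% of all windows. The pools have no replicates, so these counts have no test.

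Most windows stayed below 20 tags per 10M for the other factors. That level is not the same enrichment for each antibody. Of the SgshKO tags, 17.9% lay in the windows for MITF and 10.3% for TFEB, against 32.97% for TFE3. SgshKO MITF reached 20 tags per 10M at 660 windows (33.8%), against 23.8% of all windows and 79.4% of the TFE3 sites of both genotypes. SgshKO TFEB reached it at 354 (18.1%), against 16.6% and 59.8%. Both reached it at 202 windows, MITF alone at 458, TFEB alone at 152 and neither at 1141. SgshKO MITF exceeded 20 at 74 of the 75 windows whose SgshKO TFE3 was at least 100, and at 179 of the 998 windows between 20 and 30. The strongest MITF after Nnat and Sucla2 was at Prkch, and the strongest TFEB after Prkch was at Gm12669 (109) and at a window 10053 bp from Fabp5 (107).

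H3K27ac was measured in other libraries than the factors and was tested over all windows at once. Its tags were counted in windows of 800 bp centred on the same sites. Before the results, the libraries were checked. They held 12000879 to 15778229 tags, with 41.2% to 51.3% in the windows in WT and 33.2% to 47.2% in SgshKO. At the window nearest the start of Sgsh, the signal ran from 93.8 to 143 in WT and from 93.7 to 122 tags per 10M in SgshKO. This window does not check the deletion, whose position the labels do not state. Summed over the windows nearest 7 microglial marker genes, the signal was 2090 to 2506 in WT and 1437 to 2053 in SgshKO. For oligodendrocyte markers it was 97.5 to 112 in WT and 32.3 to 65.1 in SgshKO, and for astrocyte markers 79.99 to 89.5 and 49.6 to 66.0. Of the genes on these lists, 7 of 7, 5 of 7 and 5 of 5 had a window. Neuronal markers (4 of 6 genes) gave 10.1 to 21.3 and 10.2 to 20.9, monocyte or neutrophil markers (3 of 5) 15.6 to 45.0 and 7.87 to 32.97, lymphocyte markers (3 of 4) 15.8 to 32.7 and 15.8 to 34.5, and border macrophage markers (6 of 6) 117 to 142 and 116 to 139. No marker with a window was at 0 in all libraries. Within the sums single genes differed, each read at the window nearest its start. For Mog, Mrc1 and Ms4a7 that window lay at 588, −224 and 25 bp (negative is upstream). For Aqp4 and Cd163 it lay at −58700 and −31210 bp, which does not identify those genes. The oligodendrocyte fall came from Mog (78.6 to 89.8 in WT and 17.2 to 35.9 in SgshKO). The astrocyte fall came from the window nearest Aqp4 (26.5 to 36.9 and 4.65 to 16.5). At the other 4 genes of each list with a window the genotypes overlapped. Among border macrophage markers Mrc1 was higher in every SgshKO library (32.5 to 49.7 and 62.2 to 74.4), as was Ms4a7 (9.23 to 10.8 and 12.4 to 23.2), and Cd163 was lower (30.8 to 41.5 and 4.72 to 20.2). The part of these differences in the changes described next was not tested. Fewer marked nuclei and less mark per nucleus cannot be told apart in sorted bulk samples. The marker sums were not TMM-scaled, and the part in them of the share of tags in the windows was not tested.

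Acetylation rose at many of the windows and fell at few. Over both ages, with 4 libraries against 4, limma called 744 windows higher and 37 lower in SgshKO at a false discovery rate (FDR) below 0.05. The fit tested 1679 of the 1953, since 274 had too few tags. Of all 69663 windows tested, 12.7% were called higher and 10.7% lower. Counting untested windows as not called, 38.1% of the 1953 were higher and 1.89% lower, against 9.63% and 8.15% of all 91770. At the TFE3 sites of both genotypes the shares were 17.5% higher and 12.3% lower. The filter on low tags can favour windows that are high in 1 genotype, so the fit was repeated without it. It then called 724 of the 1953 higher and 32 lower, against 9.27% and 7.34% of all windows.

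Without any model, all 4 SgshKO libraries lay above all 4 WT libraries at 728 windows (37.3%), against 9.95% of all windows. They lay below at 31 (1.59%), against 8.12%. The median log2 change over all 1953 windows was 0.75, against 0.01 over all windows and −0.01 at the TFE3 sites of both genotypes. At the 449 windows of the reversed rule, 7 were called higher and 79 lower, with a median of −0.23.

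**Figure D2:**
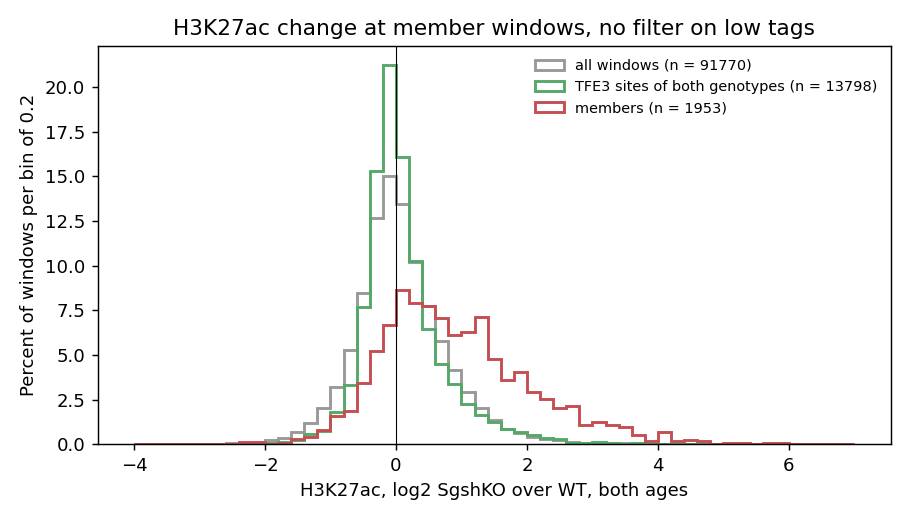
Distribution of the H3K27ac difference between SgshKO and WT (log2 of TMM-scaled tags per 10M + 1, mean of 4 libraries each) over the 1953 windows, the 13798 TFE3 sites of both genotypes and all 91770 windows; the vertical axis is the percent of each group's windows per bin of 0.2. The 1953 windows have a median of 0.75 and a long shoulder to the right, and the other groups centre on 0.

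The rise was seen in the younger and in the older mice. Of the 1953, limma called 460 at 4 months higher and 11 lower, against 7.87% and 4.32% of the windows tested, and at 8 months 485 and 18, against 6.87% and 6.25%. Both ages called 355 of the same windows higher. Of the windows called at either age, 6 had opposite signs at the other. For the genotype by age interaction, 114 of the 1679 tested had an unadjusted limma p below 0.05, as did 4507 of all 69663. After adjustment limma called 0 of the 1953 (0% of all windows tested), and edgeR and DESeq2 called 0. That does not show that the difference was equal at both ages. Inputs of the same 8 samples were compared in the same way at the 829 windows with enough tags. There limma called 0 (0% of all windows tested), and edgeR and DESeq2 called 0. An unadjusted limma p below 0.05 was found at 21 of the 829, and at 1051 of all 39323 windows tested. The input libraries held 10319658 to 70034332 tags, and 58.3% of all windows were empty in that with the fewest. The group's median log2 input difference was 0.10, and 0.43 or −0.31 without SgshKO 4-month input replicate 1 or 2. Over all windows tested the median was 0.02, and 0.35 or −0.42 in the same fits. The 0 calls therefore do not show equal inputs.

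The share of windows with raised acetylation went up with the TFE3 level. Of the 998 windows with SgshKO TFE3 from 20 to 30, 242 (24.2%) were called higher and 25 lower. Of the 610 from 30 to 50, 254 (41.6%) were higher, and of the 270 from 50 to 100, 178 (65.9%). Of the 75 at 100 or more, 70 (93.3%) were higher and 0 lower. The median log2 change in these groups was 0.42, 0.80, 1.61 and 2.70. Shares of all windows at the same levels were not computed, and at any level 9.63% were called higher. At the TFE3 sites of both genotypes, whose median SgshKO TFE3 was 96.9, 17.5% were higher and 12.3% lower. The 484 windows that met the rule after TMM scaling as well had 314 higher (64.9%) and 2 lower, and the 1469 others 430 (29.3%) and 35.

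Windows that all of the factors reached were acetylated more often. Where both MITF and TFEB were at 20 or more in SgshKO, 148 of 202 (73.3%) were called higher and 0 lower. With MITF alone it was 226 of 458 (49.3%), with TFEB alone 67 of 152 (44.1%), and with neither 303 of 1141 (26.6%). These groups also differ in TFE3 level, and the parts of the factors were not separated. Shares of all windows grouped in this way were not computed, and over all windows 9.63% were called higher. By position, 299 of the 680 intergenic windows (44.0%) and 351 of the 888 intronic ones (39.5%) were higher, but 47 of the 259 at promoters (18.1%). Over all windows the same shares were 11.6%, 10.5% and 5.92%.

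**Figure D3:**
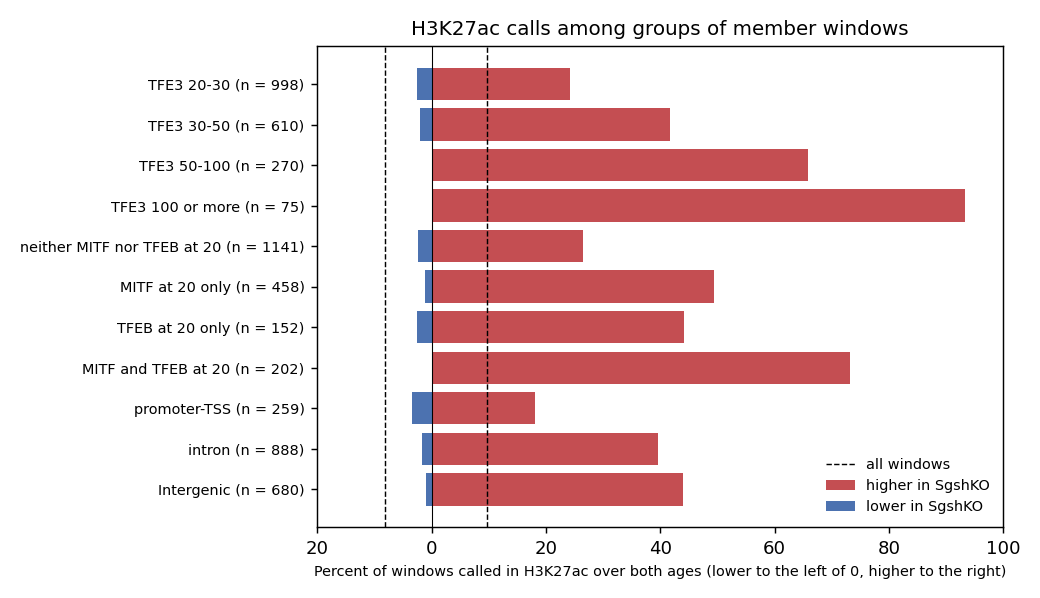
Percent of windows called higher (right of 0) or lower (left of 0) in H3K27ac in SgshKO over both ages, among the 1953 windows grouped by SgshKO TFE3 level, by MITF and TFEB at 20 tags per 10M or more, and by annotation; n is the number of windows, untested ones included. Dashed lines mark 9.63% and 8.15%, the shares of all windows, and the share called higher climbs from 24.2% to 93.3% with the TFE3 level.

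The 10 windows with the most TFE3 were all called higher in H3K27ac. At Prkch the 4 WT libraries held 19.2 and 5.55 at 4 months and 4.29 and 10.8 at 8 months, in TMM-scaled tags per 10M. The 4 SgshKO libraries held 191 and 154, and 123 and 154. All SgshKO libraries were above all WT libraries, and the log2 change was 4.02 (SE 0.28, limma FDR = 4.64e-14). At the Gm12669 window WT held 0, 1.11, 4.90 and 0.718 and SgshKO 135, 115, 112 and 103, a log2 change of 5.76 (SE 0.37, limma FDR = 1.10e-14). At the Hif1a window, 114181 bp upstream, WT ran from 3.06 to 7.90 and SgshKO from 100.2 to 130, a log2 change of 4.40. The least changed of the 10, at Nnat, rose by 2.66 on the log2 scale, from 0.612 to 2.77 in WT to 12.6 to 18.7 in SgshKO.

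Among windows called higher, the smallest p-values belonged in part to windows of moderate TFE3. At the window nearest 4933427D06Rik, on chromosome 6 at 89003657 to 89003857, TFE3 was 0.560 in WT and 92.0 in SgshKO. Its H3K27ac was 7.20, 9.43, 4.29 and 5.75 in WT and 161, 162, 172 and 139 in SgshKO, a log2 change of 4.42 (SE 0.24, limma FDR = 1.36e-16). In an intron of Rxra, which encodes a nuclear receptor partnering with LXR and PPAR receptors, TFE3 was 1.96 and 33.2. Acetylation there was already present in WT, at 39.2 to 76.0, and reached 307 to 339 in SgshKO, a log2 change of 2.62. At a window in an intron of Ascc2, nearest the start of Uqcr10, it went from 0 to 2.45 in WT to 106 to 130 in SgshKO, a log2 change of 5.90. The others of this group were nearest 4930556M19Rik (3.23) and Mir7237 (3.26), along with the Hif1a window.

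Falls were fewer and came at windows with weak TFE3. The clearest was nearest 4933433H22Rik, on chromosome 17 at 84096445 to 84096645, where TFE3 was 23.9 in SgshKO. H3K27ac was 241, 240, 239 and 231 in WT and 171, 118, 139 and 149 in SgshKO, a log2 change of −0.73 (SE 0.12, limma FDR = 1.17e-05). The others were nearest Ston2 (−0.89), Cdh23 (−0.67), Csmd3 (−2.08), Pmp22 (−0.82) and Aebp2 (−1.68). Their SgshKO TFE3 ran from 24.4 at Csmd3 to 34.4 at Pmp22 and Aebp2, and none of them reached 50.

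Lysosomal hydrolases and membrane proteins, a list of 53 genes with 484 windows, had 15 of the 1953 windows, or 3.10% of theirs, against 2.13% overall. The lists were chosen with earlier results of these data known. Acetylation rose at 8 of the 15, fell at 0, and 2 were not tested, with a median log2 change of 1.35 over all 15, untested windows included as for the medians of the other lists, while 24.4% of all windows of the list rose. Heparanase, encoded by Hpse, cuts heparan sulfate chains, the substrate that Sgsh helps degrade. It had 3 windows upstream of or at its start on chromosome 5.

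At the Hpse promoter (printed above) TFE3 was 0.560 in WT and 42.6 in SgshKO. H3K27ac there was 2.40, 0, 7.35 and 5.03 in WT and 64.0, 64.0, 79.3 and 86.4 in SgshKO, a log2 change of 4.35 (SE 0.36, limma FDR = 4.98e-12). The window 6421 bp upstream held 1.12 and 135 for TFE3, 2.56 and 105 for MITF and 6.80 and 70.8 for TFEB, and its H3K27ac rose by 4.01. The third, 9228 bp upstream, held 2.24 and 55.6 for TFE3 and rose by 3.04 in H3K27ac. In all 3 windows the genotypes did not overlap in any H3K27ac library. The 3 are neighbours of 1 gene and are not independent.

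A window 27724 bp upstream of Ctsl, which encodes the protease cathepsin L, held 3.64 and 120 for TFE3 and 0 and 144 for MITF. Its H3K27ac rose by 1.57 (SE 0.32, limma FDR = 0.000229), from 5.03 to 16.8 in WT to 24.3 to 40.6 in SgshKO. Both windows nearest the start of Lipa, the lysosomal acid lipase gene, rose, by 1.35 and 1.38, with SgshKO TFE3 of 32.6 and 33.7. A further window in an intron of Lipa is nearest the start of Ch25h and was not tested. The window 605 bp into Gla, which encodes alpha-galactosidase A, held 2.24 and 67.2 for TFE3 and rose by 2.24.

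Windows of 5 other genes of this list were tested and did not pass. The window in Galc, which encodes galactosylceramidase, was high for all 3 factors in SgshKO (TFE3 84.5, MITF 56.2, TFEB 59.7) yet its H3K27ac was 2.40 to 7.90 in WT and 6.77 to 11.04 in SgshKO. Its log2 difference was 0.66 (SE 0.48, limma FDR = 0.36), and the genotypes overlapped. The Manba window missed the threshold narrowly, at 0.81 (limma FDR = 0.0517), and passed with edgeR (0.0340) and under 4 other alternatives. Log2 differences were 0.37 at Ctsh, 0.25 at Ppt1 and −0.19 at Ids. The windows nearest Gaa and Tpp1 had too few H3K27ac tags to be tested, although TFE3 reached 29.1 and 59.0 there. They lie 15472 and 10743 bp upstream of those genes, in an intron and an exon of other genes.

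The proton pump of the lysosome, the V-ATPase, had 4 windows and the autophagy list 2. In the V-ATPase list only the intronic window of Atp6v1a, the catalytic subunit A gene, rose in H3K27ac. It went from 8.88 to 11.6 in WT to 50.4 to 63.4 in SgshKO, a log2 change of 2.33 (SE 0.27, limma FDR = 1.17e-08), with TFE3 of 4.20 and 59.7. Differences at Atp6v1g1 and Tcirg1 were 0.62 and 0.15, and Atp6ap2 was not tested. Both autophagy windows rose. At Tecpr1, whose product acts at damaged lysosomes and in autophagosome maturation, TFE3 was 3.64 and 118 and H3K27ac rose by 2.15. At the promoter of Sqstm1, the cargo receptor p62, TFE3 was 2.24 and 23.7 and H3K27ac rose by 0.61 (SE 0.17, limma FDR = 0.00736). The Sqstm1 call was lost with scaling by library total (0.134) and without SgshKO 4-month replicate 2 (0.0735). The medians of the lists were 0.53 and 1.38, and over all their windows 36.6% and 11.2% rose.

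Genes of the MiT/TFE family and of mTORC1 control had 11 windows (6.01% of their 183), of which 7 rose in H3K27ac, 0 fell and 2 were not tested, while 31.1% of all windows of the list rose. Rragd encodes RagD, a Rag GTPase that brings mTORC1 to the lysosome. In its 5' UTR, on chromosome 4 at 32983303 to 32983503, TFE3 was 1.68 and 39.2, MITF 0 and 31.8 and TFEB 0 and 39.2. H3K27ac was 6.40, 1.66, 1.22 and 3.59 in WT and 49.3, 57.2, 71.3 and 68.9 in SgshKO, a log2 change of 4.04 (SE 0.37, limma FDR = 5.86e-11). All 3 factors and the mark were thus low in WT and higher in SgshKO at this window.

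Fnip2, whose product works with folliculin on the Rag GTPases, had 4 intronic windows. Acetylation rose at 3 of them, by 2.42, 2.73 and 1.72. The fourth had the most TFE3 of the 4 (76.5) but its H3K27ac overlapped between genotypes, at 82.6 to 92.6 in WT and 73.5 to 105 in SgshKO, with a log2 difference of 0.10 (SE 0.16, limma FDR = 0.712). A window in an intron of Armc2, nearest the start of Sesn1, which encodes the mTORC1 inhibitor sestrin 1, held 0 WT TFE3 tags and 55.8 in SgshKO, and rose by 1.77. The factors' own genes were among the nearest genes. A window 457 bp into Tfeb rose in H3K27ac by 1.13 (SE 0.15, limma FDR = 1.75e-07), from 61.8 to 84.8 in WT to 140 to 171 in SgshKO. One in Mitf rose by 1.06, a second Mitf window and the Rptor window were not tested, and the Tfe3 window had a log2 difference of 0.01.

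Genes of disease-associated microglia (DAM), a state described around plaques and in other brain pathology, had 17 windows (6.37% of the list's 267). Acetylation rose at 14 of them and fell at 0, with a median of 1.89. Over all 267 windows of the list 56.9% rose, with a median of 0.79. Igf1, a growth factor gene, had 3 windows, all with 0.840 TFE3 in WT and with 95.7, 73.6 and 34.9 in SgshKO. At the farthest, 161597 bp upstream, H3K27ac was 0, 1.11, 0.612 and 0 in WT and 27.2, 12.3, 28.8 and 18.4 in SgshKO, a log2 change of 3.99 (SE 0.61, limma FDR = 3.31e-06). The other two rose by 3.04 and 2.68.

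The window near Fabp5, a fatty acid binding protein gene, held 3.08 and 202 for TFE3, 0 and 155 for MITF and 0 and 107 for TFEB, and its H3K27ac rose by 2.93. Upstream of Gpnmb, a transmembrane glycoprotein gene of lysosomal stress, TFE3 was 0.840 and 30.3 and H3K27ac rose by 2.65 (SE 0.71, limma FDR = 0.00511). A window upstream of Timp2, an inhibitor of metalloproteases, rose by 2.78 with little MITF (0.730 and 0). Csf1, a ligand of the microglial survival receptor, had windows that rose by 1.81 and 2.57, and the 3 windows of the proton-sensing receptor gene Gpr65 rose by 1.19, 1.18 and 0.89. The smallest Gpr65 change lost its call with scaling by library total (limma FDR = 0.0742) and when WT 8-month replicate 1 (0.148) or replicate 1 of SgshKO at 4 (0.106) or 8 months (0.222) was left out, and the Csf1 change of 1.81 without WT 8-month replicate 1 (0.0637).

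Of the 3 Hif1a windows, the one 54520 bp upstream rose by 1.64 (limma FDR = 0.0401), a call lost with scaling by library total (0.0628) and without any 1 of 6 of the 8 libraries (0.0568 to 0.280), all but WT 4-month replicate 1 and SgshKO 4-month replicate 2. The one 11577 bp upstream did not pass (0.40, limma FDR = 0.379), but passed without SgshKO 4-month replicate 1 (0.0301). Spp1, which encodes osteopontin, had a window 9085 bp upstream that rose by 1.89, from 12.8 to 23.9 in WT to 51.7 to 115 in SgshKO. Its promoter window, printed above, held 1.96 and 51.0 for TFE3 and 1.10 and 31.5 for MITF, but too little H3K27ac in either genotype to be tested, 0 to 3.33 in WT and 1.85 to 5.77 in SgshKO. The Ch25h window, which lies 25763 bp upstream of that gene in an intron of Lipa, was not tested either.

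Homeostatic microglial genes had 5 windows, 0.847% of the list's 590. The one nearest Selplg lies 24238 bp upstream of it, in an intron of another gene. The Selplg window rose by 2.09 (limma FDR = 0.0135), a call lost when SgshKO replicate 2 at 4 months (0.0529) or replicate 1 at 8 months (0.123) was left out. The windows of Sall1, Maf, Sparc and Olfml3 did not pass, with log2 differences of 0.29, −0.08, 0.36 and −0.03. At Sall1 and Maf acetylation was strong in both genotypes, 102 to 202 in WT and 117 to 176 in SgshKO. TFE3 in SgshKO was 30.98 and 21.4 there. Over all windows of the list 34 rose and 144 fell.

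Lipid handling genes had 9 windows (6.82% of 132), of which 6 rose and 0 fell, with a median of 1.54, while 40.2% of all windows of the list rose. Nceh1 encodes a hydrolase of cholesteryl esters. Its intronic windows held 108 and 37.4 TFE3 in SgshKO, and H3K27ac rose by 3.44 and 1.19. Plin2, which encodes the coat protein perilipin 2 of lipid droplets, had a promoter window with the TCACGTG printed above. There TFE3 was 2.80 and 29.4, MITF 8.76 and 76.2 and TFEB 2.58 and 2.84, so MITF was the strongest of the 3 in SgshKO. H3K27ac rose by 0.97 (SE 0.21, limma FDR = 0.000521), from 30.2 to 40.5 in WT to 54.5 to 92.2 in SgshKO. A window 20433 bp upstream of Plin2 held 97.9 TFE3 in SgshKO and rose by 3.04.

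One window of Abca1, the cholesterol exporter gene, rose by 2.02 and the other did not pass (0.15). In an exon of Pparg, a nuclear receptor gene of lipid storage, H3K27ac rose by 1.59 (limma FDR = 0.0124), a call lost when replicate 2 of WT at 8 months (0.0877) or replicate 1 of SgshKO at 4 months (0.0635) was left out. The promoter window of Srebf1, a regulator of lipid synthesis, did not pass (0.19), and its second window was not tested.

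**Figure D4:**
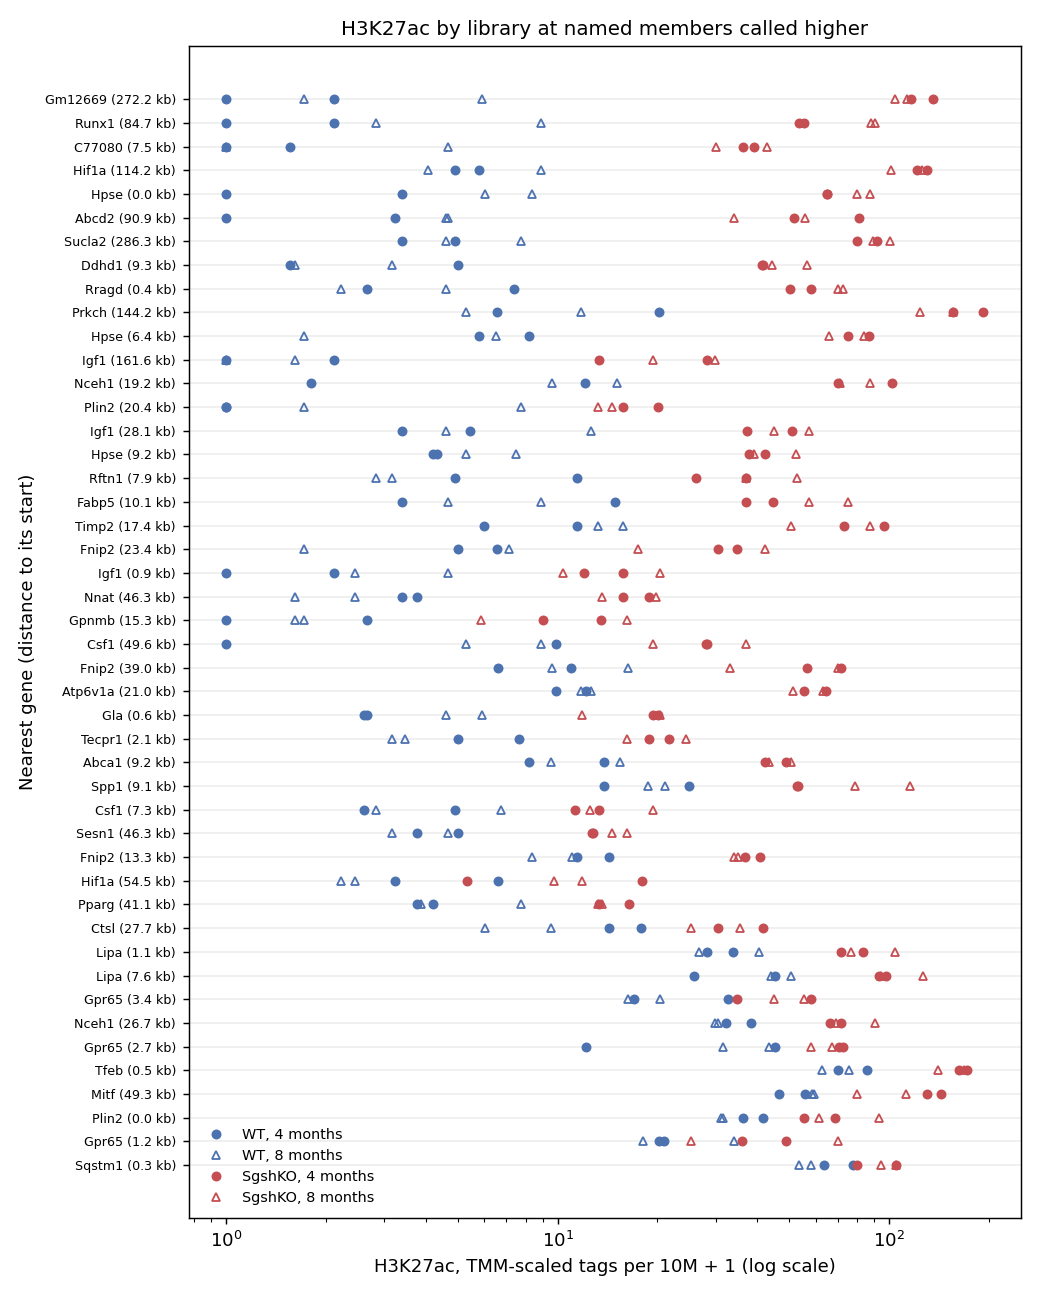
H3K27ac in each of the 8 libraries, in TMM-scaled tags per 10M plus 1 on a log axis, at windows among the 10 with the most TFE3 or nearest genes of the lysosomal, V-ATPase, autophagy, MiT/TFE, DAM and lipid lists that limma called higher, 1 window left out; rows give the nearest gene and the distance to its start, colours the genotype and symbols the age. At most rows every SgshKO library lies right of every WT library, as at Rragd (49.3 or more against 6.40 or less), while the genotypes overlap at the Gpr65 window 1229 bp and the Hif1a window 54520 bp from the start.

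Some genes had several windows of the group. There were 1602 nearest genes, of which 251 had at least 2 windows, and 267 windows had another within 10 kb. The H3K27ac windows of 40 overlapped each other, so those share tags. The genes named next were picked for their number of windows. Rftn1 had the most, 8 of its 29 windows, spread from 50069347 to 50192689 on chromosome 17. Their SgshKO TFE3 ran from 21.9 to 275, and H3K27ac rose at all 8, by 1.51 to 3.15. The largest change was at the promoter printed above, where TFE3 was 2.24 and 82.2. H3K27ac there was 10.4, 7.77, 24.5 and 16.5 in WT and 114, 136, 146 and 117 in SgshKO (limma FDR = 7.39e-14).

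Tmem154, a transmembrane protein gene, had 7 of its 21 windows in the group, all with raised H3K27ac, by 2.31 to 4.29. At its promoter, printed above, TFE3 was 3.08 and 103, MITF 0.370 and 62.7 and TFEB 6.80 and 21.04. H3K27ac there was 10.4, 11.1, 9.79 and 10.8 in WT and 62.6, 63.4, 78.6 and 86.4 in SgshKO, a log2 change of 2.67. Tpra1 and 4933427D06Rik, neighbours on chromosome 6, had 5 windows each between 88959990 and 89055316, and limma called 8 of the 9 tested there higher. None of the windows nearest either gene was among the TFE3 sites of both genotypes. Xylt1, which encodes a xylosyltransferase that starts glycosaminoglycan chains, had 5 windows in an intron with SgshKO TFE3 of 30.5 to 98.4, of which 4 rose in H3K27ac. At the Gm40744 start, nearest Plxnc1, TFE3 was 1.12 and 52.8, MITF 5.48 and 61.7 and TFEB 3.75 and 26.4. H3K27ac rose there by 1.95 (SE 0.49, limma FDR = 0.00269). The Utp20 promoter window, which also holds both forms of E-box, had TFE3 of 3.36 and 36.0. Its H3K27ac difference of 0.27 on the log2 scale did not pass (limma FDR = 0.637). Jdp2, which encodes an AP-1 family protein, had 4 windows with SgshKO TFE3 of up to 137, and limma called 0 of the 3 tested higher, with log2 differences of −0.11 to 1.16.

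The same antibodies were used in OLIG2-sorted nuclei, which the labels assign to oligodendrocytes and for which a separate set of windows was deposited. Of the 1953 windows, 360 (18.4%) overlapped one of those by at least 100 bp, against 24.1% of all microglial windows and 27.4% of the TFE3 sites of both genotypes. At these 360 the median TFE3 in oligodendrocyte pools was 8.54 in WT and 16.3 in SgshKO, close to the 8.54 and 14.2 of all overlapping windows. Only 10 of the 360 (2.78%) met the same rule in oligodendrocytes, against 1.97% of all overlapping windows. Oligodendrocyte TFE3 reached 20 at 23.3% of the 360 in WT and at 43.1% in SgshKO, against 24.4% and 40.7% of all overlapping windows. For H3K27ac, windows of neurons overlapped 523 of the 1953 (26.8%) by at least 400 bp and windows of oligodendrocytes 475 (24.3%), against 36.9% and 33.5% of all microglial windows. Median neuronal signal there was 24.2 in WT and 26.6 in SgshKO, and median oligodendrocyte signal 22.1 and 19.3. These tables were scaled separately, so levels are not compared across cell types.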

How the data were processed

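The authors deposited signal tables, in tags per 10M tags of each library, per the file headers; the submitters' processing notes name mm10, Bowtie2, HOMER and DESeq2, with no versions. The microglial factor windows are 200 bp wide. In the low values checked, 99.9959% to 100% were whole tags within 0.02 of a step plus the rounding of the deposited values. The windows and gene lists were chosen with earlier results of these data known. Named windows are the 10 with the most SgshKO TFE3, 6 called higher and 6 lower with the smallest p and no overlap, those on the gene lists, the 3 highest MITF and TFEB, and those at the limits. H3K27ac was scaled by TMM (edgeR 4.0.16) after filterByExpr and tested as log2(tags per 10M + 1) with limma 3.58.1 (R 4.3.3), two-sided, on 4 groups of 2 libraries, with Benjamini-Hochberg adjustment over all 69663 windows. The input headers repeat the ChIP totals, so input totals were read from the step. The script was tested on simulated data. Distances to gene starts were the same in the deposited table and in the promoter table for 6016 of 7500 windows within 150 bp of a start. DESeq2 1.42.0 and the other alternatives are given at the end. One window of the lysosomal list is counted but not reported here.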

Additional observations from a re-analysis of the deposited data

How the results depend on the processing

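The number of windows under the rule was 595 with TMM scaling of the pools, 741 with WT TFE3 below 2.5 and 520 with SgshKO TFE3 of at least 40. The reversed rule took 449 windows, and 644 with TMM scaling, an alternative chosen after seeing the data. Windows at least 2-fold higher numbered 986 (pseudocount 5) and 1055 (TMM) for MITF and 678 and 804 for TFEB. The shares of all windows were then 23.8% and 25.5% for MITF and 15.5% and 18.8% for TFEB. With library total, pseudocount 5, no filter, edgeR, DESeq2, only the compared age or the replicate block, the sum of higher and lower H3K27ac calls among the 1953 windows stayed within 1.5 times that of the main analysis, except for the interaction. Library total took the median of all windows from −0.02 to −0.20 over both ages. Calls were then 629 higher and 68 lower, beside 5700 and 11410 of the 69663 windows tested. Lower calls at 8 months were 40 with library total and 9 with DESeq2, against 18 (6354, 2826 and 4351 of all windows). At 4 months they were 7 with DESeq2, against 11 (2248 and 3010 of all windows). Over both ages DESeq2 called 24 lower, and 5684 of all windows. Leaving out 1 library gave 300 to 529 calls at 4 months, the fewest without SgshKO replicate 1 and 309 without replicate 2. At 8 months it gave 323 to 612, the fewest without WT replicate 1 and 334 without WT replicate 2. The count for the main effect of genotype ran from 634 to 809. For inputs it was 0 to 0, and for the interaction 0 to 7, the most without WT 4-month replicate 2. With 1 library left in a group, that library is assumed to vary like the others. Calls over all windows also fell and rose when libraries were left out, so these ranges are not particular to the 1953.

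The replicate number as a block gave 484 calls (4 months), 511 (8 months) and 780 (both), with 1 for the interaction and 0 for inputs. Over both ages it called 8921 of all windows higher and 7511 lower. Deviations of same-numbered libraries correlated at 0.0029 (4 months) and −0.020 (8 months), so they share only a number. Of 59 named windows called over both ages, 52 kept the call under every alternative. The sign of uncalled windows reversed under these alternatives, at an FDR of 0.6956 or more in limma, edgeR or DESeq2. With library total it was −0.0021 at Srebf1, −0.039 at Tcirg1, −0.091 at Fnip2, −0.024 at Abca1 and −0.16 at Tfe3. At Tfe3 edgeR gave −0.023 and DESeq2 −0.018. Leaving out 1 library gave ranges of −0.099 to 0.82 at Sparc, −0.040 to 0.41 at Srebf1, −0.073 to 0.88 at Hif1a, −0.0096 to 0.23 at Fnip2, −0.42 to 0.36 at Olfml3, −0.23 to 0.52 at Abca1, −0.17 to 0.024 at Maf, −0.32 to 0.34 at Tfe3 and −0.38 to 0.022 at Ids. Manba (FDR = 0.0480 with the block) and Kcne3 gained a call under some alternatives.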

Other observations

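The 1953 windows were spread over all autosomes and the X. Chromosome 3 held 126 of them (6.45%), against 4.49% of all windows, a ratio of 1.44, and chromosome 16 held 82 (4.20%), against 3.31%, a ratio of 1.27. The lowest ratios were on chromosome 11, with 122 windows and 0.742, and on chromosome 17, with 75 and 0.774. These shares were not tested. Zeb1, which encodes a zinc finger repressor, had 4 windows with SgshKO TFE3 of 21.2 to 36.2, and limma called 1 of them higher in H3K27ac. Cd93, a C-type lectin receptor gene of myeloid and endothelial cells, had 4 with SgshKO TFE3 of 25.5 to 69.7, of which 3 were called higher. The one at its start had a log2 difference of 0.30 that did not pass. Chst2, a sulfotransferase gene, had 4, with SgshKO TFE3 of up to 98.2, all called higher, by 0.62 to 4.06. These genes were picked for their number of windows.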
